A study of Arabidopsis thaliana with 13 samples.

Results

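The vacuolar protein sorting (VPS) genes of Arabidopsis thaliana were followed through 48 h in whole seedlings of the accession Col-0. The genes were chosen as the probe sets that the ATH1 platform annotation gives to a single gene with a symbol beginning VPS and whose mean log2 signal over all arrays was above 5. This rule took 9 genes out of 10 VPS genes with a probe set of their own, and out of 22746 non-control probe sets in all. The signal level chose the members, so their brightness is given below as a description only. Just inside the threshold was VPS60.1, with a mean log2 signal of 5.23, and the only VPS probe set outside it was that of VPS24.2, at -0.37 and with signals between 0.494 and 1.23. The TAIR10.1 gene table holds 29 genes with a symbol beginning VPS, so 19 of them, among them those of the retromer and of the tethering complexes at the vacuole, were not analysed here by name.

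All seedlings were wild type and untreated, and they were raised on MS agar with 3% sucrose, at 22 C and in a photoperiod of 12 h. The 13 samples were taken every 4 h from hour 26 to hour 74 of a single course, and each hour is a group of 1 array. Whether the light-dark cycle went on during sampling, and what hour 0 was, is not given in the labels, so times of day are written as hours of the course modulo 24. With no replicate at any hour, every error and p-value rests on how far single arrays lay from the fitted course, which may be technical.

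The VPS proteins were first found in yeast as those without which cargo is lost on its way to the vacuole. Most of the genes measured here encode parts of the ESCRT machinery, which pulls ubiquitin-tagged membrane proteins into vesicles inside the late endosome before it fuses with the vacuole. ESCRT-II, to which VPS22 belongs, recruits the ESCRT-III proteins, which assemble into filaments that cut the vesicle neck. In plants this route clears receptors and auxin carriers from the cell surface.

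The labelled tissue was checked against its marker genes. Of 9 genes fixed as markers of green tissue, 5 had a named probe set. The dimmest over the arrays was the antenna gene LHCB4.3 (66.7 to 207). The brightest were its relative LHCB4.1 (2422 to 3919) and RCA (2418 to 3950). Of 4 root markers, 3 had one, and PYK10, a root beta-glucosidase, lay between 2524 and 3492. The root hair expansins EXPA7 (21.7 to 60.8) and EXPA18 (35.3 to 64.9) were dim, near the mean signal of 31.8 needed to pass the filter. The mean of each array without its extremes was 100.01 throughout, and the median signal was 46.8 to 50.9. Over the 13647 probe sets tested, the mean of centred log2 signals stayed between -0.021 and 0.020 on every array.

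The first question was whether any VPS gene followed a daily rhythm. In limma's moderated F test of a 24 h cosine and sine, adjusted by Benjamini-Hochberg over all 13647 probe sets, 0 of the 9 genes were called at an adjusted p under 0.05, against 18.3% of all probe sets tested. At an unadjusted p under 0.05 there was 1 of 9, against 31.0% of all. The amplitude (log2 scale), which is the rise of the fitted cosine from its mean to its peak, had a median of 0.10 over the 9 genes and of 0.14 over all tested probe sets. The SD of log2 signal over the arrays was above the median of all tested probe sets, 0.21, in 2 of the 9 genes. In whole seedlings, fewer cells of a type and less RNA per cell cannot be told apart.

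ESCRT-II was represented by VPS22 (AT4G27040), one of its core subunits. Its signal had a lowest value of 156 at hour 66, a median of 189 and a highest value of 207 at hour 26, and hour 34 was almost as high. The amplitude was 0.05 ± 0.06 (SE), which is smaller than its error, and the adjusted p was 0.81 in limma's test. Both arrays of hour 18 were low (177 and 156) and both of hour 14 were high (193 and 198), while hours 2 and 6 held high and low arrays.

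VPS20.1 (AT5G63880) encodes the ESCRT-III subunit that, in yeast, binds ESCRT-II and starts the filament. Its signal was 49.0, 65.1, 69.97, 54.1, 48.5 and 53.4 at hours 26 to 46, then 42.6, 53.5, 60.8, 65.1, 44.6 and 46.4 at hours 50 to 70, and 58.1 at hour 74. It was thus highest at hours 30 and 34 in the earlier cycle and at hours 58 and 62 in the later one, and lowest at hour 50. The fitted curve had an amplitude of 0.24 ± 0.08 (SE), the largest among the 9 genes, a 1.39-fold difference between trough and peak, and a peak at hour 9.69 ± 1.18 (SE). It did not pass limma's test over all probe sets (unadjusted p = 0.029, adjusted p = 0.11).

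The means of VPS20.1 over parts of the day show the same order. It averaged 61.4 ± 6.59 (SD, 6 arrays) at hours 6, 10 and 14, and 48.9 ± 5.32 (SD, 7 arrays) at hours 18, 22 and 2. The lowest value of the first part, 53.5, lay below the highest of the second, 58.1 at hour 74, so the parts overlapped. Among all probe sets called rhythmic, 11.8% had an amplitude no larger than that of VPS20.1, and the median amplitude called was 0.37.

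VPS2.1 (AT2G06530) and VPS2.2 (AT5G44560) are paralogues of another ESCRT-III subunit, which in yeast joins the filament late and helps to recruit the ATPase that takes it apart. VPS2.1 had signals of 135, 153, 131, 126, 119 and 121 at hours 26 to 46, of 129, 141, 138, 143, 131 and 128 at hours 50 to 70, and of 123 at hour 74. Its scatter was low, with an SD of 0.10 on the log2 scale, under which lay 3.82% of all tested probe sets. The amplitude was 0.10 ± 0.05 (SE) with a peak at hour 8.13 ± 1.77 (SE), and the adjusted p was 0.38.

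VPS2.2 ran between 56.7 at hour 62 and 80.2 at hour 70, with a median of 64.7. Its amplitude, 0.02 ± 0.08 (SE), was the smallest of the 9 and its peak was undefined within its error of 15.8 h (adjusted p = 0.98). Across the 13 arrays the paralogues VPS2.1 and VPS2.2 correlated at r = -0.24, a description over arrays that share their scaling. Cross-hybridisation between these paralogues was not tested.

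VPS24.1 (AT5G22950), the partner of VPS2 in the yeast filament, ranged from 86.1 at hour 30 to 121 at hour 34, with a median of 99.95. Neighbouring arrays thus held its lowest and highest values. The amplitude was 0.04 ± 0.06 (SE), and the adjusted p was 0.90. Its correlation with VPS2.2 was r = 0.56, the highest of these pairs but one.

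VPS46.2 (AT1G73030), also known as CHMP1A, is an ESCRT-III related protein known in Arabidopsis for the sorting of auxin carriers into late endosomes. Its signal was 265, 327, 292, 305, 249 and 248 at hours 26 to 46, then 299, 307, 309.8, 243, 314 and 249 at hours 50 to 70, and 353 at hour 74. The earlier cycle was high at hours 30 to 38 and low after it, while in the later cycle hour 62 was the lowest of all and hour 66 was high. The amplitude was 0.16 ± 0.07 (SE), 1.25-fold from trough to peak, with a peak at hour 6.95 ± 1.404 (SE) and an adjusted p of 0.22.

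VPS60.1 (AT3G10640) and VPS60.2 (AT5G04850) are paralogues of a protein that in yeast binds the cofactor of the disassembly ATPase. VPS60.2 had signals of 46.9, 42.7, 60.01, 60.14, 53.8 and 46.3 at hours 26 to 46, of 43.0, 38.3, 53.6, 57.997, 46.1 and 43.6 at hours 50 to 70, and of 57.5 at hour 74. Hours 10 and 14 were the highest of the day in both cycles and hour 6 the lowest, with hour 74 apart from the other arrays taken at hour 2. The amplitude was 0.17 ± 0.08 (SE), 1.27-fold, with the peak at hour 13.8 ± 1.92 (SE) and an adjusted p of 0.27. Without hour 74 alone the amplitude was 0.26 ± 0.07 (SE) and VPS60.2 was called (adjusted p = 0.041), the only call of any of the 9 genes in 25 alternative settings. Without hours 26 and 74 together the amplitude was 0.28 ± 0.08 (SE), and the gene was not called (adjusted p = 0.052 in limma's test). The share of all probe sets called in these settings is not given, so the call has no background beside it.

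VPS60.1 ranged from 31.5 at hour 58 to 44.4 at hour 38, with a median of 37.6. It was lower at hours 58 and 62 than at the same times of the earlier cycle, 39.6 and 44.4. The amplitude was 0.06 ± 0.08 (SE) and the adjusted p was 0.86. The paralogues VPS60.1 and VPS60.2 correlated at r = -0.19 across the arrays.

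VPS9B (AT5G09320) stands apart from the ESCRT genes by its role. It is the relative of VPS9A, the exchange factor that activates Rab5 GTPases on plant endosomes. VPS9B had signals of 52.8, 70.3, 60.9, 66.5, 46.7 and 65.1 at hours 26 to 46, of 54.8, 74.5, 62.6, 60.5, 65.5 and 55.3 at hours 50 to 70, and of 64.1 at hour 74. Hour 6 was its highest time in both cycles. The amplitude was 0.15 ± 0.08 (SE), 1.23-fold, with a peak at hour 8.23 ± 1.80 (SE) and an adjusted p of 0.39.

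**Figure D1:**
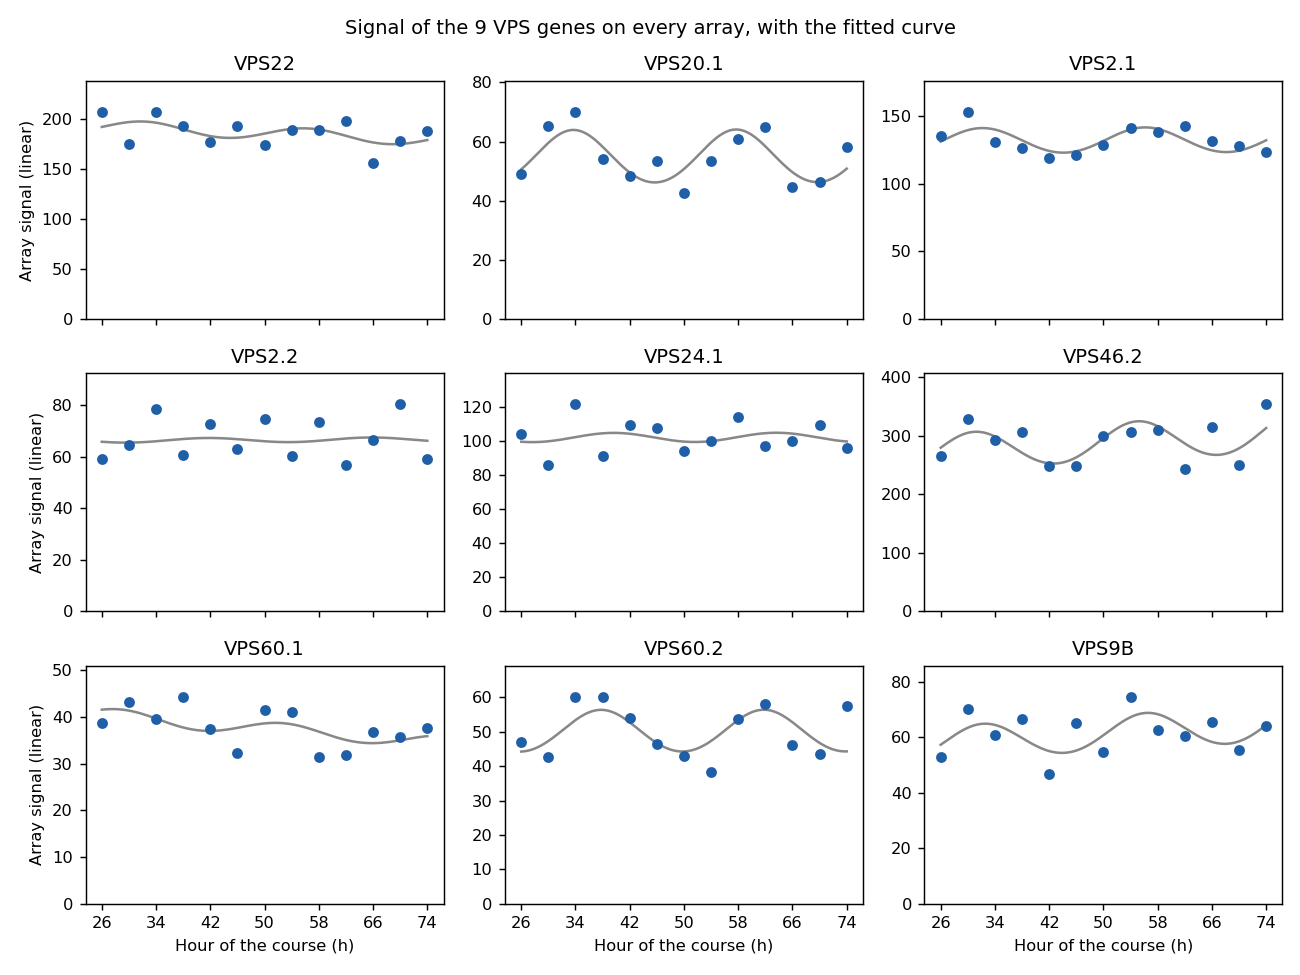
Signal (linear, vertical axis from 0) of each of the 9 VPS genes against the hour of the course. Points are the 13 arrays and the grey line is the fitted 24 h curve with its straight trend. VPS20.1 and VPS60.2 rise and fall in both cycles, while VPS2.2 and VPS24.1 scatter round an almost flat curve.

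**Figure D2:**
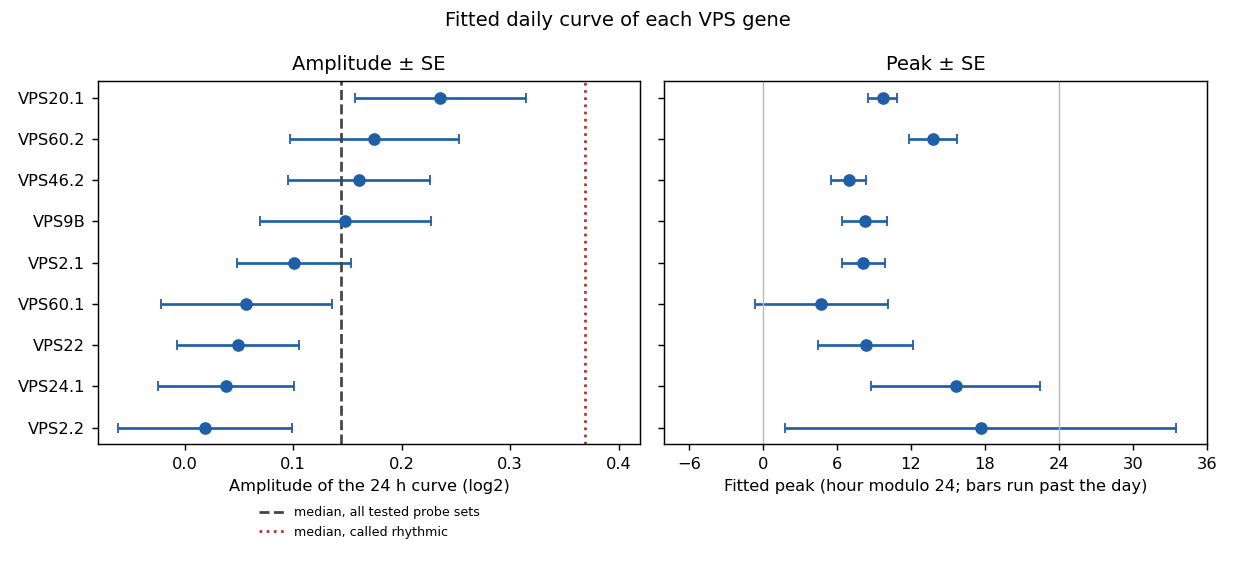
Amplitude (log2, left) and fitted peak (hour modulo 24, right) of each VPS gene, with standard errors as bars. The dashed line is the median amplitude of all tested probe sets, 0.14, and the dotted line that of the probe sets called rhythmic, 0.37. The 4 smallest amplitudes are no larger than their errors and their peaks are poorly defined.

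The next question was whether a shallow daily course was shared although no single gene passed. The log2 signal of each gene was centred on its own mean and averaged over the 9 genes. This mean course was -0.051, 0.055, 0.153, 0.048, -0.068 and -0.058 at hours 26 to 46, then -0.066, 0.008, 0.064, -0.010, -0.052 and -0.062 at hours 50 to 70, and 0.039 at hour 74. Hour 10 of the day was the highest of either cycle, at hours 34 and 58, and hours 18 to 2 were low in both. Hour 74 differed from this, 0.104 above hour 50, which was taken at the same time of day.

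A curve fitted to the mean course had an amplitude of 0.08 ± 0.02 (SE), or 1.12-fold from trough to peak, and a peak at hour 9.34 ± 0.79 (SE). The curve and the trend together took up 70.2% of its variance. No p is given, since the genes were chosen with results of these data known. The standard errors of the single genes ran from 0.05 to 0.08. The smallest amplitude called in any probe set was 0.14, so no probe set with a curve as shallow as the mean course was called. VPS20.1, VPS60.2, VPS46.2 and VPS9B had amplitudes above that smallest value and were not called either. Whether each gene carried the shallow curve of the mean was not tested.

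From its lowest to its highest array the mean course spanned 1.17-fold at hours 26 to 46 and 1.09-fold at hours 50 to 70. Without hour 34, its highest array, the earlier cycle spanned 1.09-fold (0.123 on the log2 scale, against 0.221 with it). The later cycle kept its own highest array, hour 58, so these spans were not treated alike and cannot be compared. Arrays taken 24 h apart differed by between -0.089 (hours 34 and 58) and 0.104 (hours 50 and 74) on the log2 scale, and 5 of the 7 such pairs by less than 0.06. At hour 34, 7 of the 9 genes lay above their own mean, and at hour 58, 8 did, while 2 did at hour 70. On the other arrays 3 to 6 did. The 3 arrays named were chosen after the mean course was seen, so their counts restate it.

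A division of the day was made after the values were seen. Over the 6 arrays of hours 6, 10 and 14 the mean course ran from -0.010 to 0.153, with a median of 0.051. Over the 7 arrays of hours 18, 22 and 2 it ran from -0.068 to 0.039, with a median of -0.058. The parts overlapped only through hour 74, without which the second part reached no higher than -0.051.

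**Figure D3:**
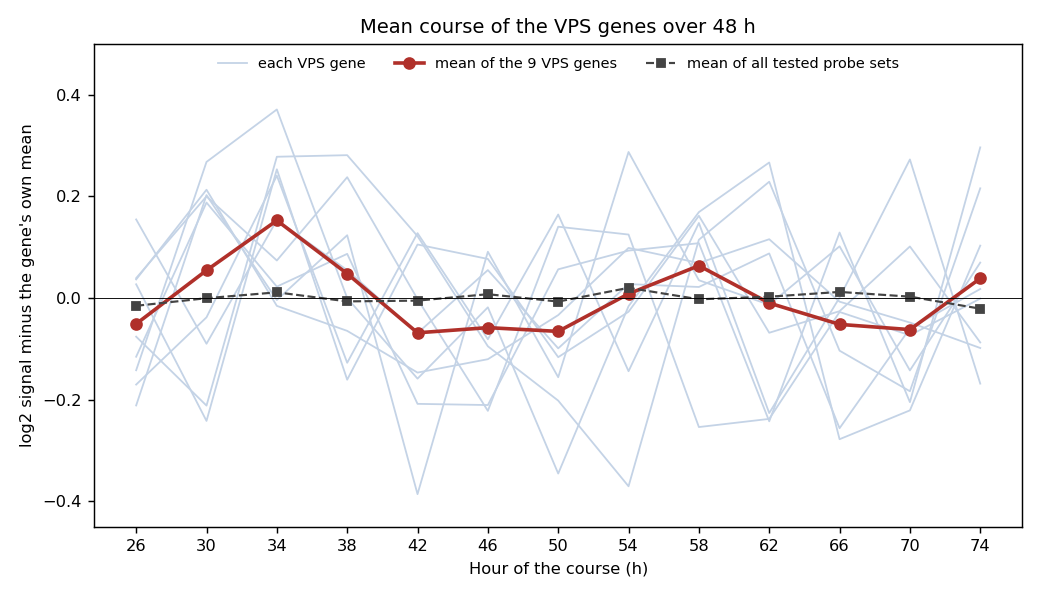
Log2 signal minus each gene's own mean (vertical axis) against the hour of the course. Pale lines are the 9 VPS genes, the red line is their mean and the dashed line the mean of all 13647 tested probe sets. The red line peaks at hours 34 and 58 (0.153 and 0.064), while single genes spread far wider. The dashed line stays between -0.021 and 0.020. A mean over 13647 probe sets with differing courses is flattened by averaging, so it is no baseline for a mean of 9 genes.

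The single genes differed in how far they followed this course. By the division above, 7 of the 9 genes were on average higher at hours 6, 10 and 14, against 53.2% of all tested probe sets, and 4 of the 9 were so in both cycles, against 35.1%. These 4 were VPS20.1, VPS60.2, VPS2.1 and VPS9B. In a window likewise chosen after the values were seen, the fitted peak lay between hours 6 and 12 for 5 of the 9 genes, against 28.2% of all tested probe sets, and these were VPS20.1, VPS46.2, VPS2.1, VPS9B and VPS22. VPS2.2 and VPS24.1 had slightly lower means at hours 6, 10 and 14. The division and the window follow the mean of these same genes, which favours an excess over other probe sets, so the shares are a description and no evidence of a shared course.

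Pair by pair, the correlations of the VPS genes lay on both sides of 0. Of their 36 pairs, 17 had a correlation above 0, with a median of -0.02 and a range of -0.50 to 0.57, whereas all pairs of tested probe sets had a median of 0.003 with quartiles of -0.24 and 0.25. The quartiles over the VPS pairs were -0.21 and 0.34. The highest values were those of VPS46.2 with VPS9B (0.57), VPS24.1 with VPS2.2 (0.56) and VPS20.1 with VPS22 (0.55), and the lowest that of VPS60.1 with VPS24.1 (-0.50). Among the 5 genes of largest amplitude, 7 of 10 pairs lay above 0, with a median of 0.33. These 5 were picked by their fitted curves, so that value is no separate evidence of a shared course.

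Each gene was also set against the mean of the other 8. VPS20.1 followed it most closely, at r = 0.64 over the 13 arrays, followed by VPS22 at 0.26 and VPS46.2 at 0.25. VPS60.1, VPS24.1 and VPS2.2 lay below 0, at -0.05, -0.10 and -0.21. The amplitude of the mean course was 0.06 ± 0.02 (SE) without VPS20.1, with the peak at hour 9.18.

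**Figure D4:**
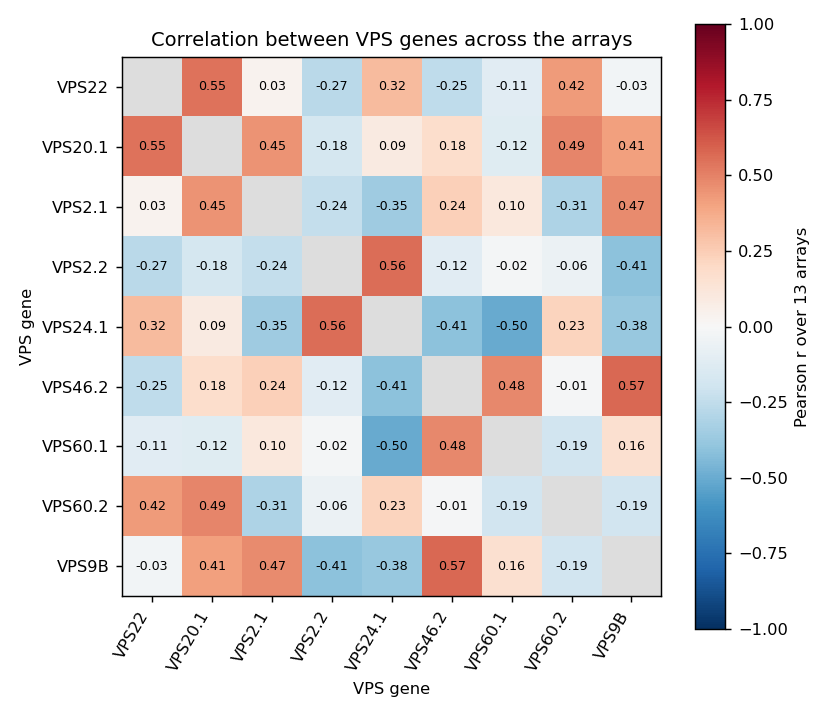
Pearson correlation of log2 signal between each pair of VPS genes over the 13 arrays, from blue (-1) to red (1), with the value in each cell. Positive and negative cells are mixed, from 0.57 for VPS46.2 with VPS9B to -0.50 for VPS60.1 with VPS24.1.

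Neither a difference between the cycles nor a trend was called for any VPS gene. In limma's interaction test of hours 50 to 70 against hours 26 to 46, 0 of 9 genes were called, against 0% of all tested probe sets. At an unadjusted p under 0.05 there were 0 of 9 against 3.30%. Without moderation 0 of 9 were also called, but the share of all probe sets in that setting is not given. VPS60.2 peaked at hour 13.8 in the earlier cycle and 13.9 in the later, and VPS9B at hours 7.94 and 9.59, while VPS60.1 moved from hour 9.98 to hour 1.83. The fitted peaks of the cycles lay within 4 h of each other for 5 of the 9 genes, against 59.4% of all tested probe sets.

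The drift over the course, tested in the same limma fit as the rhythm, was called for 0 of 9 genes, against 0.960% of all. At an unadjusted p under 0.05 there were 0 of 9, against 11.1% of all. Without moderation 0 of 9 were also called, but the share of all probe sets in that setting is not given. The slopes ran from -0.11 ± 0.09 for VPS60.1 to 0.08 ± 0.09 for VPS9B (SE, log2 per 24 h), and the adjusted p-values from 0.75 to 1.00.

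Arrays 24 h apart gave a further description of each gene. Over the 7 such pairs the correlation of a gene with itself had a median of 0.18 for the 9 genes, against 0.35 for all tested probe sets and 0.79 for those called rhythmic. It was highest for VPS24.1, at 0.66, although that gene had almost no 24 h curve, and 0.53 for VPS60.2, 0.40 for VPS2.1 and 0.33 for VPS20.1. Over the 10 pairs of arrays 12 h apart the median was -0.32, against -0.24 for all tested probe sets. VPS2.1 (-0.73), VPS46.2 (-0.71) and VPS9B (-0.61) were the most opposed, and VPS24.1 was at 0.33.

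Other genes of the route to the vacuole were taken from lists matched by symbol, and of these 29 loci were tested. Of the 29, 5 (17.2%) were called rhythmic, against 18.3% of all probe sets, and their median amplitude was 0.11. One of the 5, CHC1, matched by symbol alone and is no gene of this route, and without it the count was 4 of 28 (14.3%). ESCRT genes without a VPS name gave 0 of 3. SNF7.2, of the most abundant ESCRT-III subunit in yeast, had an amplitude of 0.22 ± 0.13 (SE), its paralogue SNF7.1 had 0.07 ± 0.08, and ELC, which binds ubiquitin in ESCRT-I, had 0.11 ± 0.06 (adjusted p of 0.46, 0.82 and 0.42).

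The endosomal Rab5 GTPase ARA6 had an amplitude of 0.08 ± 0.05 (SE) and a peak at hour 8.42 (adjusted p = 0.48), and the SNARE YKT61 one of 0.02 ± 0.06 (adjusted p = 0.96). Subunits of the vacuolar proton pump gave 0 of 3 calls, against 18.3% of all probe sets. Their amplitudes included 0.02 ± 0.04 (SE) for VHA-A3 and 0.06 ± 0.08 for VHA-A2. Of the list fixed for the exocyst and other tethers 0 of 7 were called, against the same 18.3%. It included SEC6, an exocyst subunit (0.11 ± 0.05, adjusted p = 0.22), and SEC22, a SNARE that the list took by its symbol (0.09 ± 0.05, adjusted p = 0.42).

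Autophagy genes, whose products also deliver cargo to the vacuole, gave 3 of 10 calls, against 18.3% of all probe sets. A list this small was not tested against that share. All 3 were among the 9 tested ATG8 genes, whose small proteins coat the autophagosome, and the other 6 ATG8 genes were not called. ATG8E changed 2.14-fold with a peak at hour 5.87 (adjusted p = 4.37e-04) and ATG8F 1.55-fold at hour 4.86 (adjusted p = 0.0025). APG8H (AT3G15580) changed 1.31-fold with a peak at hour 6.30 (adjusted p = 0.044). ATG8H (AT3G06420) is another locus and was not called (0.15 ± 0.14, adjusted p = 0.73). The amplitudes of the 6 ATG8 genes not called ran from 0.08 for ATG8G to 0.20 for APG8A, and ATG8D had its fitted peak at hour 15.2.

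Of the vacuolar processing enzymes, proteases that mature proteins inside the vacuole, 1 of 3 was called rhythmic, against 18.3% of all probe sets. This was BETA-VPE, which changed 1.79-fold with a peak at hour 3.76 (adjusted p = 0.018). GAMMA-VPE had an amplitude of 0.17 ± 0.08 (SE, adjusted p = 0.32). DELTA-VPE was not rhythmic (adjusted p = 0.43) but fell by 0.66 ± 0.12 (SE, log2 per 24 h, adjusted p = 0.014), the only drift called in these lists. The list of coat proteins held 1 tested locus, CHC1 (AT5G14170), which changed 1.68-fold with a peak at hour 7.96 (adjusted p = 0.0030). This locus matched by its symbol and is known as a SWIB domain protein of chromatin remodelling, not as clathrin. The lists of vacuolar sorting receptors and of sorting nexins had 0 loci with a named probe set.

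After the values were seen, 2 further ESCRT genes were added by their synonyms in the gene table. AT5G04920, listed as VPS36 of ESCRT-II, had an amplitude of 0.08 ± 0.06 (SE) and a peak at hour 16.9, and AT2G36680, listed as VPS37-2 of ESCRT-I, had 0.21 ± 0.09 and a peak at hour 6.47. Neither was called (adjusted p of 0.67 and 0.23). VPS36 and VPS22 are subunits of the same complex in yeast.

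GI, a clock-associated gene, gives the scale of a strong rhythm on the same arrays. Its signal was 38.1, 103, 343, 53.1, 35.4 and 38.9 at hours 26 to 46, then 47.8, 172, 223, 69.9, 53.9 and 43.4 at hours 50 to 70, and 56.6 at hour 74. The swing was wider in the earlier cycle. The curve fitted to all 13 arrays changed 6.90-fold between trough and peak, with the peak at hour 9.02 (adjusted p = 3.02e-04). The mean VPS course peaked at hour 9.34 ± 0.79 (SE). The fitted peaks of the single VPS genes ran from hour 4.72 to hour 17.7, and none of these genes was called. Of all tested probe sets, 28.2% peaked between hours 6 and 12. Whether the VPS genes share the timing of GI was not tested. GI had an amplitude of 1.39 ± 0.19 (SE), against 0.08 ± 0.02 for that course.

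Among 7265 other tested loci, those whose course over the 13 arrays was most like the mean VPS course were AT3G61820 (r = 0.93), AT3G22970 (0.89), AT4G33490 (0.88), AT4G12590 (0.88) and AT1G12845 (0.87). All 5 were themselves called rhythmic, against 18.3% of all probe sets, with peaks between hour 8.78 for AT3G61820 and hour 10.3 for AT4G33490. AT4G12590 was the shallowest of them, at 1.28-fold from trough to peak, and AT1G12845 the steepest, at 4.88-fold. The most opposed courses were those of AT1G68440 (r = -0.94), AT1G64500 (-0.93), AT2G15020 (-0.92), AT2G04039 (-0.92) and AT1G50020 (-0.92), with peaks from hour 20.9 to hour 22.0. The curve and trend took up 70.2% of the variance of the mean course. A choice by likeness or opposition to it therefore favours rhythm calls and peaks at these hours. These values are the extremes of many correlations over arrays that share their scaling, and they describe these arrays only.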

How the data were processed

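The authors deposited 1 intensity per probe set and array on a linear scale. Per the submitters' processing notes MAS5 was used, and its version and settings are not given in the sources used here. Every array had been scaled to 1 target, which hides changes in total RNA. Arrays give no read depth, and their number limits the precision.

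Log2 of the deposited intensity was analysed for the 13 arrays. The 13647 probe sets with a mean above the 40th percentile (log2 of 4.99) entered a linear model (limma 3.58.1, R 4.3.3, eBayes with an intensity trend) of linear time and a 24 h cosine and sine. All 9 VPS genes passed this filter. Rhythm, drift and the difference between cycles (hours 26 to 70, 12 arrays) were called at a Benjamini-Hochberg adjusted p under 0.05 over all tested probe sets. Amplitude errors come from the delta method. Symbols follow the TAIR10.1 gene table, which matched 13436 of 13513 probe sets with a single named gene. Each locus is represented by its brightest probe set. The VPS genes, the lists, matched by symbol, and the tests were chosen with earlier results of these data known. The text names every VPS gene and up to 3 called and 2 uncalled genes of each list. It also names the 5 courses most and least like the mean VPS course, and SNF7.1, ATG8G, ATG8H and ATG8D. The fits were tested on simulated data. No sequences are shown, since none were used here. Figures were drawn with matplotlib 3.10.9.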

Additional observations from a re-analysis of the deposited data

How the results depend on the processing

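The alternatives concerned the scaling between arrays, an offset before the log, the filter on dim probe sets, moderation, the period and terms of the curve, the arrays used and how genes were averaged. The number of VPS genes called rhythmic was 0 in 24 of 25 alternatives. It ran from 0 to 1 with single arrays left out, the 1 being VPS60.2 without hour 74 (adjusted p = 0.041), and the cause was not tested. The share of all probe sets called in that setting is not given. No drift was called in 24 alternatives and no difference between cycles in 21. The shares of all probe sets called in these alternatives are not given. In the main setting they were 0.960% for drift and 0% between cycles, so counts of 0 among 9 genes say little. The amplitude of the mean course was 0.11 with the median over genes, 0.062 without VPS20.1, and 0.47 in units of SD with each gene standardised, a change of unit by construction. It ran from 0.067 to 0.090 with single arrays left out, with the peak between hours 9.03 and 10.1. The other alternatives moved the amplitude by less than its error. With single genes left out the peak ran from hour 8.43 without VPS60.2 to hour 9.94 without VPS46.2. At a 22 h period the peak was at hour 12.5 and at 26 h at hour 6.63 of their own cycles. The 60th percentile filter kept 4 of the 9 genes. No paired analysis was possible because each hour has 1 array and all arrays carry the same replicate number.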
